A study of Mus musculus with 18 samples.

Results

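Transcripts of 9 genes through which thyroid hormone (TH) reaches and acts on liver cells were examined in juvenile mouse liver. The genes were Dio1, Thra, Thrb, Rxra, Ttr, Serpina7, Slc16a10, Ncor1 and Ncoa1. Their probes were found by the transcript accession of each probe, matched to the current gene symbol. They are 9 of 16535 genes with a symbol on the array. The array carried 15 probes of these genes among 41174 probes, and all 15 passed the background filter, as did 32057 probes in all. Neither the largest differences, a lower Dio1 and a higher Serpina7 in hypothyroid liver, nor any other difference among the 15 probes passed the threshold after adjustment over all probes.

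Liver RNA was from C57BL/6 male pups at post natal day (PND) 15, with 5 pups in the control group and 5 in the hypothyroid group. Dams of the hypothyroid group were given methimazole (MMI, 0.05%) and perchlorate (1%) in sugar water from PND 12, and dams of the control group were given sugar water alone. MMI blocks the synthesis of TH in the thyroid and perchlorate blocks the uptake of iodide. Per the methods, 1 male pup was taken from each litter and pups of both groups were injected with PBS on the day of sacrifice. The exposure was of dams with their litters and lasted a few days, so the groups differ in the drugs themselves as well as in TH. Each liver RNA was hybridized against a universal mouse reference RNA, and every value below is a log2 ratio of liver to reference for 1 probe. Such a ratio compares livers for the same probe and does not rank 1 gene against another. A whole liver was sampled, so fewer cells of a type and less RNA per cell cannot be told apart.

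TH circulates bound to carrier proteins made in the liver, enters cells through membrane transporters and is activated or degraded there by deiodinases, which remove iodine from the hormone. In the nucleus, receptors encoded by Thra and Thrb bind DNA as partners of retinoid X receptors such as that of Rxra. Without hormone the receptor holds a corepressor complex built on Ncor1 or its paralog, and with hormone it takes up coactivators such as that of Ncoa1. In liver the beta receptor is the major form, and Dio1 is a well known gene that TH turns on.

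The sequence before the transcription start of 3 of these genes is shown because Dio1 and Serpina7 had the largest differences and Thrb encodes the main receptor of liver. Each is the 250 bases before the start in the RefSeq table of GRCm38.p6, written in the direction of transcription. The window of Dio1 is chr4:107307169-107307418 (minus strand), that of Serpina7 is chrX:139085237-139085486 (minus strand) and that of Thrb is chr14:17660710-17660959 (plus strand). Capitals mark the half-site AGGTCA, the letters that TH receptors and retinoid X receptors read, searched on both strands.
Dio1: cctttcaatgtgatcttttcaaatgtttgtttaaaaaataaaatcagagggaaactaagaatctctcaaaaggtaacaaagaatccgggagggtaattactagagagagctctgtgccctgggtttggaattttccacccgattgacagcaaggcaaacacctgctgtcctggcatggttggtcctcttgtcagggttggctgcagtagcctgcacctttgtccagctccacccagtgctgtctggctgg
Serpina7: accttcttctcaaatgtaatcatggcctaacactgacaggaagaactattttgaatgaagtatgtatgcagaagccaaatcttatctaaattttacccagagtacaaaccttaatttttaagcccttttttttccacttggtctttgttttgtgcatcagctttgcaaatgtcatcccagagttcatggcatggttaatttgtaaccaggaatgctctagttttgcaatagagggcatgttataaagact
Thrb: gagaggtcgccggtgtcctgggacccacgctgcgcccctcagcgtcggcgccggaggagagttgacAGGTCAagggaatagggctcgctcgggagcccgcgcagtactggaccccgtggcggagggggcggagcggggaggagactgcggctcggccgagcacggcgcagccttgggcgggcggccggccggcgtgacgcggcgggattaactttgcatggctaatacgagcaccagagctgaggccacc
The half-site was found in the Thrb window, beginning 184 bases before the start, and not in the windows shown of Dio1 and Serpina7. The search among the 9 genes covered 11 windows of 7 of them, and no window of Thra or Ttr was searched. Of the 11, 2 held the half-site, the Thrb window shown and the second window of Rxra. Of all 32851 windows of this length, with no chromosome left out, 14.0% held it. A match is only a match of letters, and its absence from a window of this length says nothing about binding of the receptor elsewhere.

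The 10 arrays lay on 6 slides, of which 4 held arrays of both groups. The labels place liver RNA in Cy5 on every array. However, on slide 141 (control 832 and hypothyroid 576) 0 of 13 liver marker genes had more Cy5 than Cy3 signal. On every other array all liver markers with a value did, which were 13 genes, or 12 on control 616, where Apoa2 had no value. Across probes, the correlation of its 2 arrays with the average of all other slides was -0.974 and -0.978. The channels of slide 141 were therefore exchanged. Control 616 had the narrowest ratios, with a standard deviation over probes of 0.733 against 1.01 to 1.1 on the other arrays. Its liver markers averaged 2.62 log2 units, against 4.45 to 5.20 on the other arrays. Markers of exocrine pancreas averaged 4.60, 4.51 and 2.94 log2 units on controls 522, 832 and 616, against 0.44 to 0.62 on the remaining 7 arrays. Between 75.9% and 85.4% of probes on an array were above the background limit, and precision is limited by how many arrays there are.

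The number of probes that differed was counted first. With limma, 0 of the 15 probes had an adjusted p below 0.05 (percent of all probes called, 0.00624%), and their adjusted p-values ran from 0.535 to 0.996. Before adjustment 4 of the 15 (26.7%) had a p below 0.05, against 7.42% of all probes. Of these, 3 were higher in hypothyroid liver, where 3.34% of all probes were called in that direction, and 1 was lower, where 4.08% were. The 4 were Serpina7, Dio1, Ncor1 and Ncoa1, 1 probe each. The 5 hypothyroid values were wholly apart from the 5 control values for 0 of the 14 probes with a value on every array, against 2.09% of all probes. The median difference of the 15 probes was 0.03 log2 units, and that of all probes tested was -0.01.

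**Figure D1:**
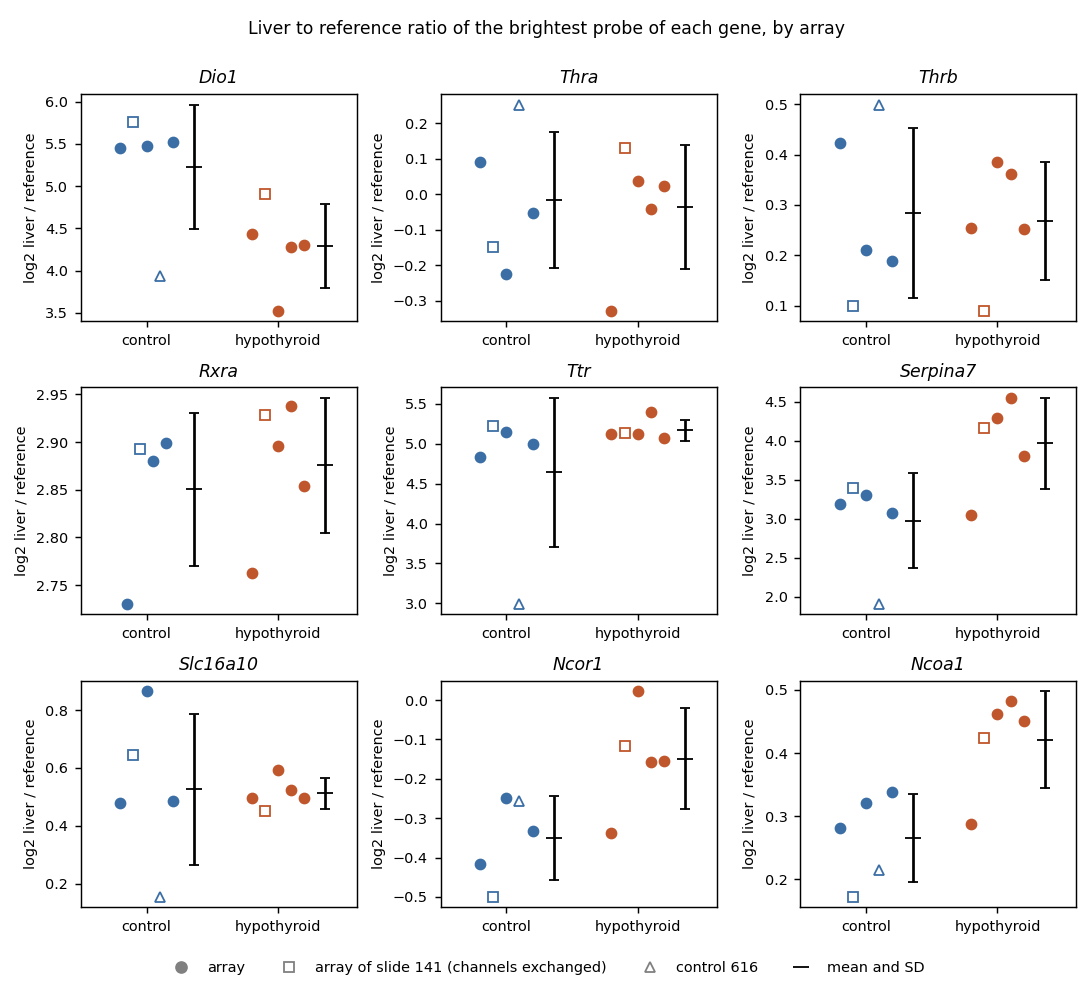
Log2 ratio of liver to reference of the brightest probe of each gene on 5 control and 5 hypothyroid arrays, with the mean and SD of each group. Every panel has its own vertical axis. Squares mark slide 141, whose channels were exchanged, and triangles mark control 616, which has no Rxra value. Control 616 is the lowest control array for Dio1, Ttr, Serpina7 and Slc16a10.

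Dio1 encodes type 1 deiodinase, which in liver converts thyroxine to the active hormone and clears reverse triiodothyronine. Its log2 ratio was 5.46, 5.76, 5.48, 3.94 and 5.53 in controls 881, 832, 522, 616 and 391. In hypothyroid livers 891, 576, 311, 723 and 626 it was 4.43, 4.91, 3.52, 4.28 and 4.31. Control 616 lay below 4 of the 5 hypothyroid livers, while the other 4 controls lay above all 5. The mean was 5.23 ± 0.73 (SD, n = 5) in control and 4.29 ± 0.50 (n = 5) in hypothyroid liver, which is 1.92-fold lower. The difference was -0.94 log2 units, with a standard error (SE) of 0.34 and a 95% confidence interval from -1.70 to -0.19 (limma unadjusted p = 0.0190, adjusted p = 0.604).

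Between arrays of the same slide the Dio1 difference was -1.95 on slide 136, -1.02 on slide 139, -0.85 on slide 141 and 0.37 on slide 100. The positive difference was that against control 616. With slide as a fixed block the difference was -0.86 (limma unadjusted p = 0.0545). Without control 616 the difference was -1.27 (limma adjusted p = 0.0613), and with each array weighted by its quality it was -1.18 (adjusted p = 0.0535). It was -0.60 with the dyes of slide 141 as labelled, and -0.18 from the scanner software's own processed signals. With ratios scaled to an equal spread between arrays it was -1.89. The sign was negative in all 25 alternatives tried. Adjusted p-values over them ran from 0.0535 to 1.00. The 3 other probes nearest to Dio1 in pattern over the 10 arrays, by Pearson's r, were Abca3 (0.96), Rfk (0.94) and Gpd2 (0.93). Without control 616 they were Higd1a (0.97), Abca3 (0.95) and Abhd6 (0.95) over 9 arrays. These arrays share slides and a common reference, and such r values only describe them.

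The brightest probes of the receptor genes differed between the groups by little. Thra encodes the alpha receptor. Its brightest probe had log2 ratios of 0.09, -0.15, -0.23, 0.25 and -0.05 in controls 881, 832, 522, 616 and 391, and of -0.33, 0.13, 0.04, -0.04 and 0.02 in hypothyroid livers 891, 576, 311, 723 and 626. The groups covered nearly the same range, and the highest control and the lowest hypothyroid array stood at the ends. The difference was -0.02 (SE 0.11, 95% interval from -0.26 to 0.22, limma adjusted p = 0.976), and a second Thra probe gave 0.02 (SE 0.14). Over 1075 bases, at chr11:98767932-98769006, Thra overlaps Nr1d1, the gene of a circadian repressor that is read from the other strand. The probe of Nr1d1 had a difference of 0.03 (limma adjusted p = 0.969). Neither the isoform of Thra nor the position of its probes could be read from the array files.

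Thrb, the gene of the beta receptor, had log2 ratios of 0.42, 0.10, 0.21, 0.50 and 0.19 in controls 881, 832, 522, 616 and 391. In hypothyroid livers 891, 576, 311, 723 and 626 its ratios were 0.26, 0.09, 0.39, 0.36 and 0.25. All 5 hypothyroid values but that of array 576 lay within the control range, and array 576 lay just below it. The difference was -0.02 (SE 0.09, 95% interval from -0.22 to 0.19, limma adjusted p = 0.977). This interval leaves room for a difference of up to about 0.2 log2 units in the processed ratio either way. The probe was itself dim, with liver signals of 75 to 188 units, and was brighter than 37.1% of the probes tested. Background correction adds an offset of 50 to both channels, so the interval bounds the ratio as processed and not the amount of transcript. A second, dimmer Thrb probe had a difference of -0.06, but the scanner called it well above background in the liver channel on only 1 control and 2 hypothyroid arrays. The patterns most like that of the brighter Thrb probe over 10 arrays were those of Map3k21, Txnl1 and Vps29 (Pearson's r of 0.97, 0.97 and 0.96). Over the 9 arrays without control 616 the nearest 3 were others, Fes, Gng5 and Gtf3a (0.97, 0.97 and 0.96).

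Rxra encodes the retinoid X receptor alpha, the DNA-binding partner of both TH receptors. Its brightest probe read 2.73, 2.89, 2.88 and 2.90 in controls 881, 832, 522 and 391, and its spot on control 616 was marked as an outlier and left out. In hypothyroid livers 891, 576, 311, 723 and 626 the ratio was 2.76, 2.93, 2.90, 2.94 and 2.85. Both arrays of slide 139 (control 881 and hypothyroid 891) were the lowest of their groups. The difference was 0.03 (SE 0.07, limma adjusted p = 0.941) with 4 control arrays, and a second probe had a difference of 0.06 (SE 0.08). The brightest Rxra probe was brighter than 97.9% of the probes tested. With median centring in place of loess its SD was 0.65 in control and 0.60 in hypothyroid liver, against 0.08 and 0.07 with loess. Under 3 of the 25 alternatives the difference turned negative, at -0.59 with ratios scaled between arrays, -0.0149 without control 881 and -0.0089 with processed signals. The plot of differences with their intervals sets these small differences beside the larger ones.

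**Figure D2:**
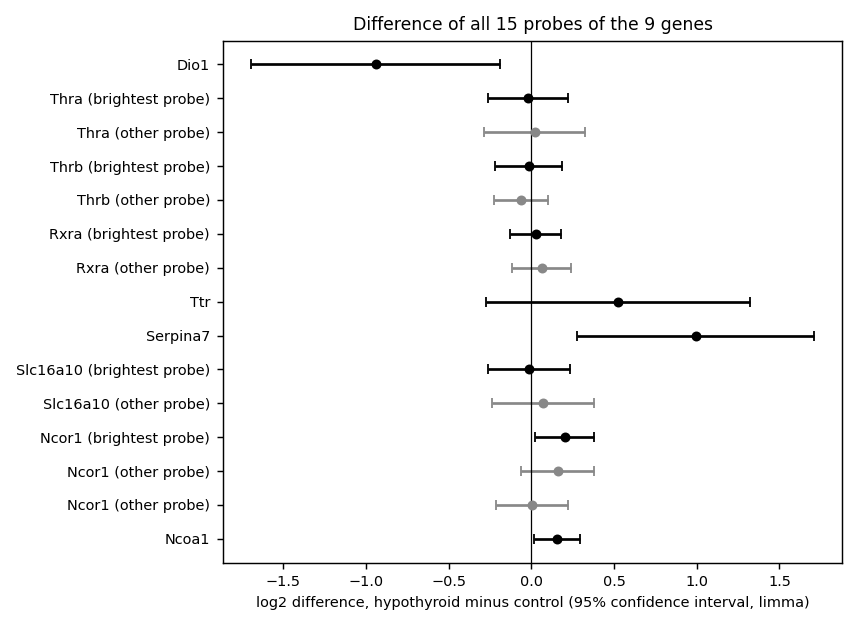
Difference of each of the 15 probes on the log2 scale, hypothyroid minus control, with its 95% confidence interval from limma. Black marks the brightest probe of a gene and grey the others. The intervals of Dio1, Serpina7, Ncoa1 and the brightest Ncor1 probe leave out 0, before any adjustment for the number of probes.

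The carriers of TH in plasma were measured next. Serpina7 encodes thyroxine-binding globulin, the carrier with the highest affinity for the hormone. Its log2 ratio was 3.19, 3.40, 3.30, 1.91 and 3.07 in controls 881, 832, 522, 616 and 391, and 3.04, 4.16, 4.28, 4.55 and 3.81 in hypothyroid livers 891, 576, 311, 723 and 626. In 4 of the 5 hypothyroid livers the ratio was above that of every control, and hypothyroid 891 lay among the controls. The mean was 2.97 ± 0.61 (SD, n = 5) in control and 3.97 ± 0.58 (n = 5) in hypothyroid liver, or 1.99-fold higher. The difference was 0.99 (SE 0.33, 95% interval from 0.28 to 1.71, limma unadjusted p = 0.0110, adjusted p = 0.535), which was the smallest adjusted p of the 15 probes.

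On shared slides the Serpina7 difference was 1.90 on slide 100, 0.98 on slide 136, 0.76 on slide 141 and -0.15 on slide 139. The largest of these was again that against control 616, without which the difference was 0.73 (limma adjusted p = 0.446). Adjusted p-values over the 25 alternatives ran from 0.340 to 1.00, and the difference was positive in all of them. It was 0.16 with processed signals, 0.37 with ratios scaled between arrays and 0.69 with the dyes as labelled. The reference signal of this probe was low, from 31.0 to 137 units, beside an offset of 50 that background correction adds to both channels. Without background correction the Serpina7 difference was 0.98 (limma adjusted p = 0.605). The part of the offset in the size of the difference was not tested.

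Ttr encodes transthyretin, a carrier of thyroxine and of the retinol-binding protein. Its ratio was 4.84, 5.22, 5.15, 2.996 and 5.00 in controls 881, 832, 522, 616 and 391. In hypothyroid livers 891, 576, 311, 723 and 626 it was 5.12, 5.14, 5.12, 5.39 and 5.06. All arrays but control 616 lay close together. The difference was 0.52 (SE 0.36, limma adjusted p = 0.748), and without control 616 it was 0.11. With ratios scaled between arrays it was -0.43. Albumin (Alb), the carrier of lowest affinity and highest amount, had a difference of 0.66 (limma adjusted p = 0.662). Alb is also 1 of the 13 liver markers. It was the only 1 of the 13 with an unadjusted limma p below 0.05, against 7.42% of all probes (3.34% higher). Control 616 was low in liver markers as a whole, and all 13 had a higher mean in hypothyroid liver. Their median difference, which is that of Alb itself, was 0.66. The part of this shift in the carriers was not tested, but the values of Serpina7 and Ttr without control 616 are those above.

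**Figure D3:**
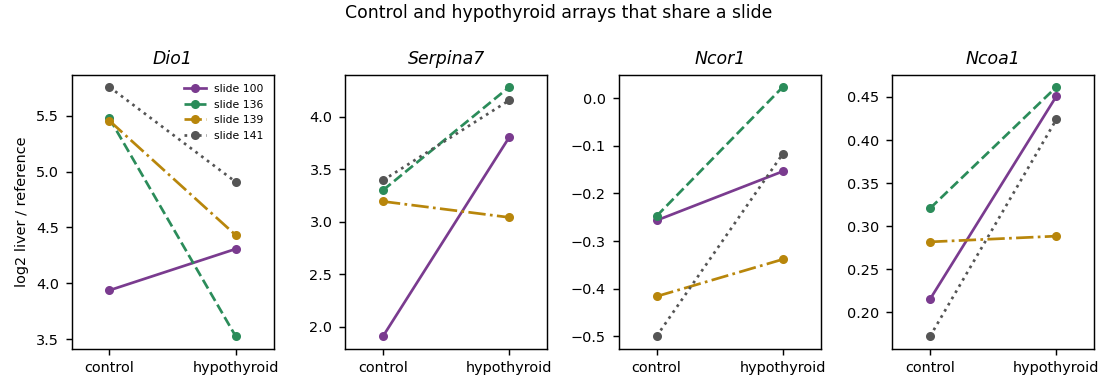
Log2 ratio of liver to reference of the brightest probe of Dio1, Serpina7, Ncor1 and Ncoa1 on the 4 slides that held 1 control and 1 hypothyroid array, joined by a line for each slide. Dio1 is lower in the hypothyroid array on 3 slides, Serpina7 is higher on 3, and Ncor1 and Ncoa1 are higher on all 4.

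Slc16a10 encodes an aromatic amino acid transporter of the monocarboxylate family that also carries TH. Its brighter probe had ratios of 0.48, 0.64, 0.87, 0.15 and 0.48 in controls 881, 832, 522, 616 and 391. In hypothyroid livers 891, 576, 311, 723 and 626 the ratio was 0.50, 0.45, 0.59, 0.52 and 0.50. The controls were spread more widely (SD 0.26) than the hypothyroid livers (SD 0.05). The difference was -0.01 (SE 0.11, 95% interval from -0.26 to 0.23, limma adjusted p = 0.984), and the second probe had a difference of 0.07 (SE 0.14). Controls 522 and 832, which were highest on this probe, were also highest in exocrine pancreas markers, while control 616, next in those markers, was lowest. On the second probe the order was another, with 0.88 in control 832, 0.81 in control 881, 0.72 in control 522, 0.56 in control 391 and 0.03 in control 616, so that control 881, low in those markers, lay above control 522. The part of such RNA in the spread was not tested. Leaving out all 3 of these controls, a setting added after the data were seen, gave a difference of 0.03.

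The coregulators differed by small amounts. Ncor1 encodes the nuclear receptor corepressor that TH receptors hold without hormone. Its brightest probe read -0.42, -0.50, -0.25, -0.26 and -0.33 in controls 881, 832, 522, 616 and 391, and -0.34, -0.12, 0.02, -0.16 and -0.15 in hypothyroid livers 891, 576, 311, 723 and 626. In 4 of the 5 hypothyroid livers the ratio was above every control, and hypothyroid 891 was not. The difference was 0.20 (SE 0.08, 95% interval from 0.02 to 0.38, limma unadjusted p = 0.0293, adjusted p = 0.633), or 1.15-fold. The other Ncor1 probes had a difference of 0.16 (SE 0.10, adjusted p = 0.731) and 0.00 (SE 0.10, adjusted p = 0.996), so the probes of this gene did not give 1 value. On shared slides the brightest probe was higher in the hypothyroid array by 0.38, 0.27, 0.10 and 0.08 on slides 141, 136, 100 and 139.

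Ncoa1, the gene of a steroid receptor coactivator with histone acetyltransferase activity, had ratios of 0.28, 0.17, 0.32, 0.22 and 0.34 in controls 881, 832, 522, 616 and 391. In hypothyroid livers 891, 576, 311, 723 and 626 they were 0.29, 0.42, 0.46, 0.48 and 0.45. As for Ncor1, hypothyroid 891 alone lay among the controls. The difference was 0.16 (SE 0.06, 95% interval from 0.02 to 0.29, limma unadjusted p = 0.0309, adjusted p = 0.642), or 1.11-fold. The difference was positive on all 4 shared slides, at 0.25, 0.24, 0.14 and 0.01 on slides 141, 100, 136 and 139. The differences of Ncor1 and Ncoa1 were positive in all 25 alternatives, from 0.05 to 0.43 and from 0.06 to 0.38. Their lowest adjusted p-values were 0.411 and 0.427. With slide as a fixed block the unadjusted limma p was 0.0522 for Ncor1 and 0.0925 for Ncoa1. Hypothyroid 891 was the hypothyroid array nearest to the controls for Serpina7, Ncor1 and Ncoa1, but not for Dio1, where it was the second.

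The processing moved the members to different degrees, which is seen when the alternatives are set side by side. The differences of Dio1, Serpina7, Ncor1 and Ncoa1 kept their sign throughout, and those of Thra, Thrb, Rxra, Slc16a10 and Ttr turned in at least 1 setting. The range was -0.13 to 0.18 for Thra, -0.08 to 0.08 for Thrb and -0.11 to 0.08 for Slc16a10. It was -0.59 to 0.30 for Rxra and -0.43 to 0.73 for Ttr.

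**Figure D4:**
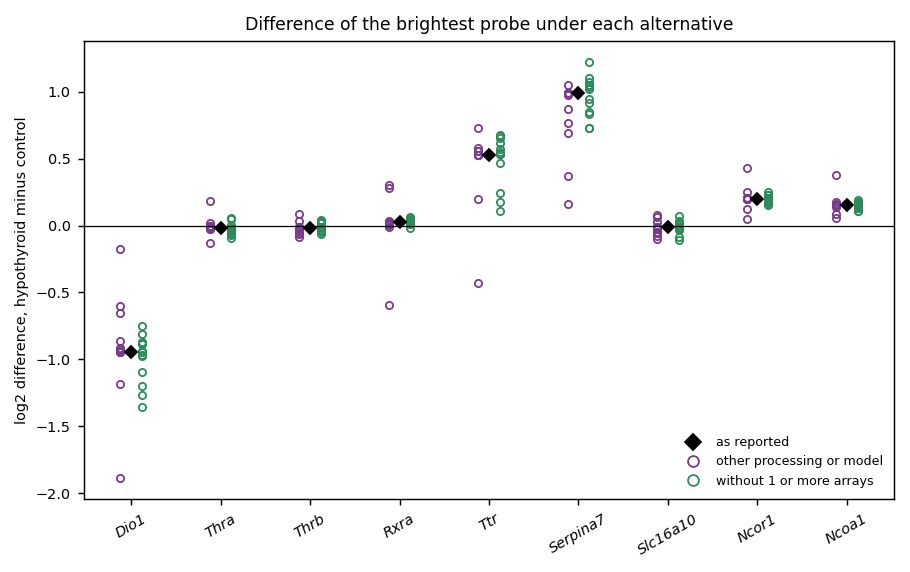
Difference of the brightest probe of each gene on the log2 scale, hypothyroid minus control, as reported (diamonds), under other processing or models (purple) and with 1 or more arrays left out (green). Dio1 stays below 0, from -1.89 to -0.18, and Serpina7 above 0, from 0.16 to 1.23.

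The other genes of the pathway were taken from lists by role, with the brightest probe of each gene. Of 54 genes including the 9 above, 51 were tested, of which 26 were higher and 25 lower in hypothyroid liver, with a median difference of 0.00. By limma 0 of the 51 had an adjusted p below 0.05. Before adjustment 8 (15.7%) had a p below 0.05, of which 5 were higher and 3 lower, against 7.42% of all probes (3.34% higher and 4.08% lower). Members made up 4 of these 8. Among the 42 other genes tested, 4 had a p below 0.05, namely Ppargc1b, Ncoa3, Sult1b1 and Alb. Ppargc1b, a coactivator of mitochondrial and lipid genes, had a difference of -0.57 (SE 0.15, limma adjusted p = 0.355). Its ratios were 0.98, 0.35, 1.18, 0.59 and 0.81 in controls 881, 832, 522, 616 and 391 and 0.27, 0.23, -0.03, 0.41 and 0.20 in hypothyroid livers 891, 576, 311, 723 and 626. Control 832 alone lay within the hypothyroid range. Ncoa3, a paralog of Ncoa1, had a difference of the other sign, at -0.28 (SE 0.12, limma adjusted p = 0.654). Sult1b1, a sulfotransferase that acts on TH, had a difference of 0.38 (SE 0.15, limma adjusted p = 0.629).

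The deiodinases gave 3 different values. Dio2, which activates the hormone in brain and brown fat, had a difference of -0.06 (SE 0.06, limma adjusted p = 0.823). Dio3, which inactivates the hormone and is abundant in fetal tissues, had a difference of 0.67 (SE 0.32, limma adjusted p = 0.687), with ratios of 2.23, 1.98, 2.72, 0.71 and 1.22 in controls 881, 832, 522, 616 and 391. Its hypothyroid ratios ran from 2.15 to 2.75, above those of controls 832, 616 and 391 but not those of controls 881 and 522. The counts by role are small and stand against 7.42% of all probes at an unadjusted p below 0.05. Among the receptor partners, Rxrb had a difference of -0.11 and Rxrg by 0.10, and 0 of the 5 genes of the receptor list had an unadjusted p below 0.05. Of 9 corepressor genes tested only Ncor1 had an unadjusted p below 0.05, and the median difference was -0.03. Of 16 coactivators, 1 was higher and 2 were lower at that p, with a median of -0.06. Of 8 membrane transporters tested, 0 had an unadjusted p below 0.05, and the median difference was -0.02.

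As background of the model, 10 genes that are known to respond to TH were read on the same arrays. By the sign of the difference 6 were lower and 4 higher, with a median of -0.17, and 0 of 10 had an adjusted p below 0.05. At an unadjusted p below 0.05 there were 4 lower genes, where 4.08% of all probes were called lower, and 0 higher genes, where 3.34% were called higher. The 4 were Thrsp, at -1.16 (SE 0.30, limma adjusted p = 0.347), Me1, the gene of malic enzyme, at -0.48 (adjusted p = 0.274), Gpd2, at -0.60 (adjusted p = 0.537), and Fasn, at -0.33 (adjusted p = 0.651). G6pc, which makes glucose 6-phosphatase, stood at 0.37 (limma adjusted p = 0.673), and all 5 of its hypothyroid values were above every control. The groups were wholly apart, in either direction, for 2.09% of all probes, and G6pc was not chosen for naming beforehand.

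**Figure D5:**
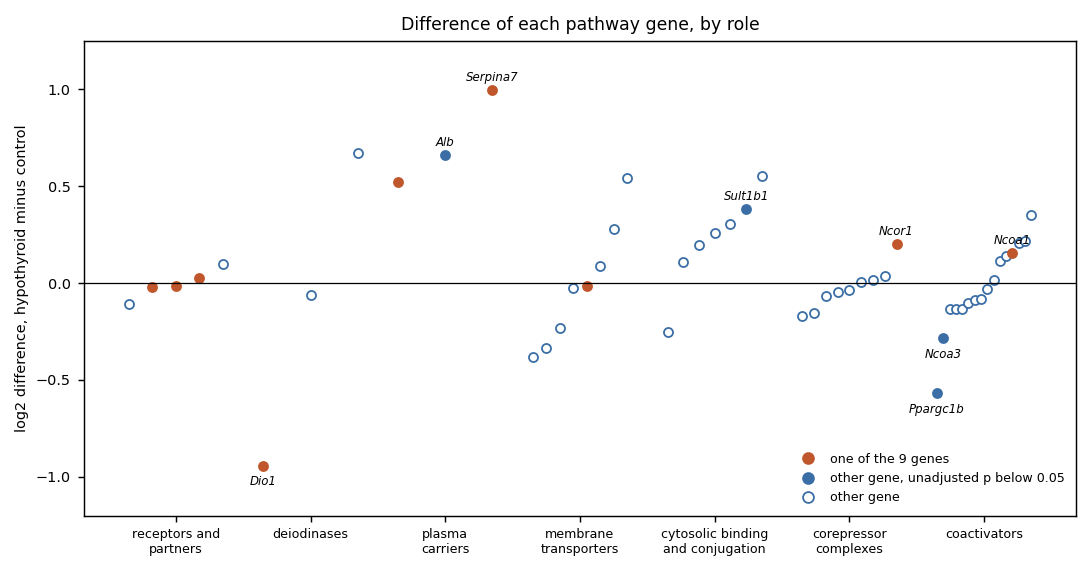
Difference of the brightest probe of each of 51 genes of TH action on the log2 scale, hypothyroid minus control, by role. Orange marks the 9 genes described above, filled blue the other genes with an unadjusted limma p below 0.05, and open circles the rest. Dio1 has the lowest value, at -0.94, and Serpina7 the highest, at 0.99.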

How the data were processed

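Groups were taken from the labels. The authors deposited median and processed spot intensity values of both channels, as Agilent Feature Extraction gave them, without normalization between arrays. From the deposited median intensity values log2 ratios of liver to reference were computed with limma 3.58.1 in R 4.3.3 (normexp, offset 50; loess, span 0.2), and files were read with the data.table package (1.17.8). Control spots and outlier spots were left out, and spots of 1 probe were averaged. A probe was kept if the liver channel was brighter than a limit set by negative control spots (their 5% trimmed mean with 3 SDs, also trimmed, added) on 4 or more of a group's 5 arrays. The channels of slide 141 were exchanged. Groups were compared with lmFit and eBayes, with Benjamini-Hochberg adjustment of p-values over 32057 probes. The methods name the Fs test of MAANOVA, and limma was used in its place. With its own test the paper counts Dio1 among the significantly altered genes, whereas the Dio1 probe did not pass the adjusted threshold here. The files hold no gene names, and 23374 of 41174 probes were given a symbol through their accession, using RefSeq genes of GRCm38.p6. Alternatives were the dyes as labelled, other background correction, normalization, filters and models (statmod 1.5.0 for the random block), and leaving out arrays. Programs were tested on simulated data. The TLDA files of miRNAs were not used here.

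All probes of the 9 genes are named. Of the pathway lists, genes with an unadjusted p below 0.05, other deiodinases and receptor partners are named. The genes, lists and rules were chosen with earlier results of these data known.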

Additional observations from a re-analysis of the deposited data

Results flagged for a closer look

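In each group of 5 arrays the gap between the end value and the nearest other array was set against the range of the group. Of 30 groups of values, 6 (20.0%) held a value far from the rest, where chance gives about 5%, and 3 of the 6 came from control 616. Control 616 was lowest among the control livers for Dio1 (3.94 log2 units, a gap of 0.834 of the range), for Ttr (2.996, gap 0.826) and for Serpina7 (1.91, gap 0.781). These flags share 1 array and are not separate events, and the differences of the genes without that array stand with each gene.

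The other 3 came from 3 different arrays. Control 881 was lowest of 4 for the brightest Rxra probe (2.73, gap 0.892). Hypothyroid 723 was highest for Ttr (5.39, gap 0.780). Hypothyroid 891 was lowest for the dimmer Thrb probe (-0.15, gap 0.758), which is near background on most arrays. The cause of these values was not tested.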

How the results depend on the processing

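The number of the 15 probes with an adjusted p below 0.05 was 0 in every one of the 25 alternatives. The number with an unadjusted p below 0.05, which was 4 (all probes 7.42%), was 0 with the dyes as labelled (all probes 0.334%) and with processed signals (6.4%), 1 with median centring (0.989%), with ratios scaled between arrays (2.69%) and with slide as a fixed block (6.97%), and 2 without slide 141 (7.45%). Leaving out 1 array at a time gave 1 (without hypothyroid 311) to 5 (without hypothyroid 891), with 2 without control 832. Without control 616 and slide 141, a setting chosen after seeing the data, it was 2. The median difference over the array was -0.01, and 0.09 with median centring. Over all probes, 2 passed the adjusted threshold. That count was 30 without control 616, 49 with array weights and 14 with slide as a random block, but 1 without control 616 and slide 141, and 0 without slide 141, with slide as a fixed block, with scaled ratios, with the dyes as labelled and with probes averaged to genes.

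Signs turned as follows, and the cause was not tested. Slc16a10 was 0.0634 with the dyes as labelled, 0.0311 without slide 141, 0.0758 with median centring, 0.0283 with probes averaged to genes and 0.03 without the 3 controls with pancreatic transcripts (a setting chosen after seeing the data). Thra was 0.184 with median centring and 0.0217 with array weights. Thrb was 0.0828 with median centring, 0.0305 with array weights and 0.0386 without control 616 and slide 141. Rxra was -0.0089 with processed signals and -0.593 with scaled ratios, and Ttr was -0.433 with scaled ratios. With 1 array left out the ranges were -1.27 to -0.75 for Dio1, -0.0721 to 0.0535 for Thra, -0.062 to 0.0376 for Thrb, -0.0149 to 0.0532 for Rxra, 0.11 to 0.67 for Ttr, 0.73 to 1.23 for Serpina7, -0.106 to 0.0715 for Slc16a10, 0.16 to 0.25 for Ncor1 and 0.13 to 0.19 for Ncoa1. No paired analysis was possible because the labels give each array animal a number of its own, as far as pairing by animal number goes. The slide does tie 1 control to 1 hypothyroid array on 4 slides, and with slide as a fixed block the limma unadjusted p was 0.0352 for Serpina7, 0.0545 for Dio1, 0.0522 for the brightest Ncor1 probe and 0.0925 for Ncoa1.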

Other observations

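The probe most like the brighter one of Slc16a10 over the 10 arrays was Pnliprp1, a pancreatic lipase relative (Pearson's r of 0.98), followed by Amy2a5, pancreatic amylase (0.97). Both were looked up after the values were seen. Over the 9 arrays without control 616 the nearest 3 were Map1lc3b (0.96), Pnliprp1 (0.96) and Rag2 (0.94), and Amy2a5 was not among them. Amy2a5 averaged 4.58 log2 units in control and 4.39 in hypothyroid liver, and was lowest on control 616, at 2.89. The exocrine pancreas markers as a list averaged 2.94 on that array, above every hypothyroid liver, so on control 616 Amy2a5 did not follow them. Amy2a5 was highest on controls 522 and 832, at 5.78 and 5.07, where the list was also highest, at 4.60 and 4.51. These values describe arrays that share slides and carry no test.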
